A study of Mus musculus with 8 samples.

Results

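A set of genes that move zinc, cadmium (Cd) and related metals across membranes, or that sense them, were followed in mouse splenic CD4+ T cells. The 10 genes studied were the rows of the deposited table with the symbols Slc30a1, Slc30a5, Slc30a7, Slc39a1, Slc39a6, Slc39a8, Slc39a10, Slc39a14, Slc11a2 and Mtf1, out of 27179 genes in all. All 10 were found, and all 10 passed the filter of a mean of at least 0.5 RPKM (reads per transcript length and library total) that left 12605 genes for testing. They comprise 3 members of the ZnT family (Slc30), 5 of the ZIP family (Slc39), the divalent metal transporter Slc11a2 and the transcription factor Mtf1.

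RNA was sequenced from 8 libraries in 4 groups of 2. Unstimulated cells were lysed at once (0 hours), and stimulated cells were cultured for 16 hours with anti-CD3/CD28 beads, so that culture and stimulation cannot be told apart. Control offspring came from parents on plain water, and Cd offspring from parents given 10 ppm CdCl2 in drinking water around mating and, for the dams, until the birth of the pups. The offspring themselves drank plain water from then on. All mice were of the strain C.Cg-Foxp3tm2Tch/J, which reports Foxp3 with a fluorescent protein, and were 8 weeks old according to the labels. Xist was at 49.3 to 67.1 RPKM in all 8 libraries. The Y chromosome genes Ddx3y, Eif2s3y, Kdm5d and Uty were at 0.0105 RPKM or less, as in female cells. The study used offspring of both sexes, and male cells were not tested here. The labels name CD4+ T cells, and the study describes the sequenced control cells as conventional T cells without CD25, a selection that removes most regulatory T cells. The libraries of a group carry the numbers 6 and 7, and neither the labels nor the methods say whether 1 library is 1 animal, so the p values measure the spread between these libraries.

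Zinc transporters work in opposite directions. ZIP proteins bring zinc into the cytosol from outside the cell or from organelles, and ZnT proteins carry it out of the cytosol. T cells take up zinc when the T cell receptor is engaged, and several of the same carriers also accept Cd. MTF1 is a zinc finger protein that binds metal response elements in DNA when zinc is high and is known to switch on the metallothionein genes Mt1 and Mt2 and the zinc exporter gene Slc30a1.

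The core of the metal response element, TGCACNC or TGCGCNC on either strand, was searched in RefSeq start windows (GRCm38.p6) of 300 bases. Windows were found for 7 of the 10 genes, and the core occurred in those of 3, Slc30a1, Slc30a5 and Slc39a8. Counted by window, 3 of 9 held at least 1 core, and so did 25.7% of 32851 windows of all genes. With so few windows, nothing particular to the 10 genes is read from this. The 30 bases around each match that lies before a start site are printed below, beside a match of Mt2 for comparison. They are given in the direction of transcription with the core in capitals. Binding of MTF1 to these matches was not tested. The match of Slc30a1 begins 43 bases before the start site, that of Slc30a5 48 bases, that of Slc39a8 19 bases and that of Mt2 50 bases. The start sites are those of the RefSeq windows, and for Slc30a1, Slc30a5 and Slc39a8 they lie inside the gene spans given below, so that each of these matches lies within its gene's annotated span. All 4 were read on the opposite strand, so that they appear here as reverse complements of the core.
Slc30a1, chr1:191906727-191906756, plus strand: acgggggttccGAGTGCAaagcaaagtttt
Slc30a5, chr13:100833457-100833486, minus strand: cgtgtccaccaGCGCGCAggcgcaggattg
Slc39a8, chr3:135825627-135825656, plus strand: ttatctctaaaGGGTGCAgggcctgatctc
Mt2, chr8:94172557-94172586, plus strand: ggggggagggcGTGTGCAggctctgtccca

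The library totals behind the RPKM values, recovered from the steps between low values, were 15542741 to 25486806 reads. The reads recovered gene by gene made up 91.6% to 93.5% of these totals. Over the genes tested, the libraries of a group correlated at 0.983 to 0.990. Il2ra, Cd69, Myc and Cd44, genes of T cell activation, summed to 158 to 211 RPKM in the unstimulated and 624 to 676 RPKM in the stimulated libraries. All 7 T cell markers were above 1 RPKM, while Ms4a1 of B cells, Hba-a1 and Hba-a2 of erythroid cells and Pf4 and Ppbp of platelets were at 0 in all 8 libraries. Other members of these lists were not: Cd79a of B cells was at 2.87 to 4.73 RPKM and higher after stimulation (adjusted p = 0.0177 in control and 0.00408 in Cd offspring in limma), and Alas2 of erythroid cells at 0.365 to 1.72 RPKM. Summed myeloid markers ran from 6.23 to 7.83 RPKM in unstimulated and from 3.21 to 4.31 RPKM in stimulated libraries. Most of that sum came from Cd68, at 4.25 to 5.77 RPKM in unstimulated and 2.74 to 3.79 RPKM in stimulated libraries. Itgam went from 1.56 to 1.85 RPKM down to 0.251 to 0.398 RPKM. Lyz2, Adgre1 and Csf1r reached at most 0.049, 0.059 and 0.319 RPKM in any library. Summed CD8 and NK markers ran from 12.9 to 15.1 RPKM in unstimulated and from 10.5 to 12.1 RPKM in stimulated libraries. Within the CD8 and NK sum the NK gene Klrb1c was at 3.15 to 4.35 RPKM in unstimulated and 0.147 to 0.293 RPKM in stimulated libraries. Cd8b1 made up most of this sum in both. The other genes of this list were near 0, with Cd8a at 0.058 to 0.160 RPKM and Ncr1 at 0.031 RPKM or less. Cd8b1 without Cd8a is thus not read here as a sign of CD8 T cells. Foxp3, the defining gene of regulatory T cells, was at 4.48 to 5.08 RPKM in unstimulated and 5.98 to 7.69 RPKM in stimulated libraries. The part of these cells in the differences between unstimulated and stimulated cells was not tested. In bulk RNA, fewer cells of a type and less RNA per cell cannot be told apart.

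Each value of the 10 genes rests on 88 to 2222 reads. Slc39a8 was the least covered, and without it the fewest reads behind a value were 417. Counting alone gives an error of 10.7% at 88 reads and of 4.9% at 417 reads. Slc30a5 had the highest and Slc39a8 the lowest level in every group. In unstimulated control cells the order from the highest level was Slc30a5, Slc39a1, Slc30a1, Slc39a6, Slc30a7, Slc39a10, Slc11a2, Mtf1, Slc39a14 and Slc39a8, with no overlap between the libraries of neighbours. After stimulation of control cells, Slc39a14 had moved up to the fourth place and Slc30a1 down to the ninth. Slc39a10, Mtf1 and Slc30a7, the fifth to the seventh in that group, could not be put in order, because their libraries overlapped. In unstimulated Cd cells the third to the sixth genes, Slc30a7, Slc39a6, Slc30a1 and Slc39a10, overlapped in the same way, and in stimulated Cd cells Mtf1 and Slc30a7 overlapped.

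**Figure D1:**
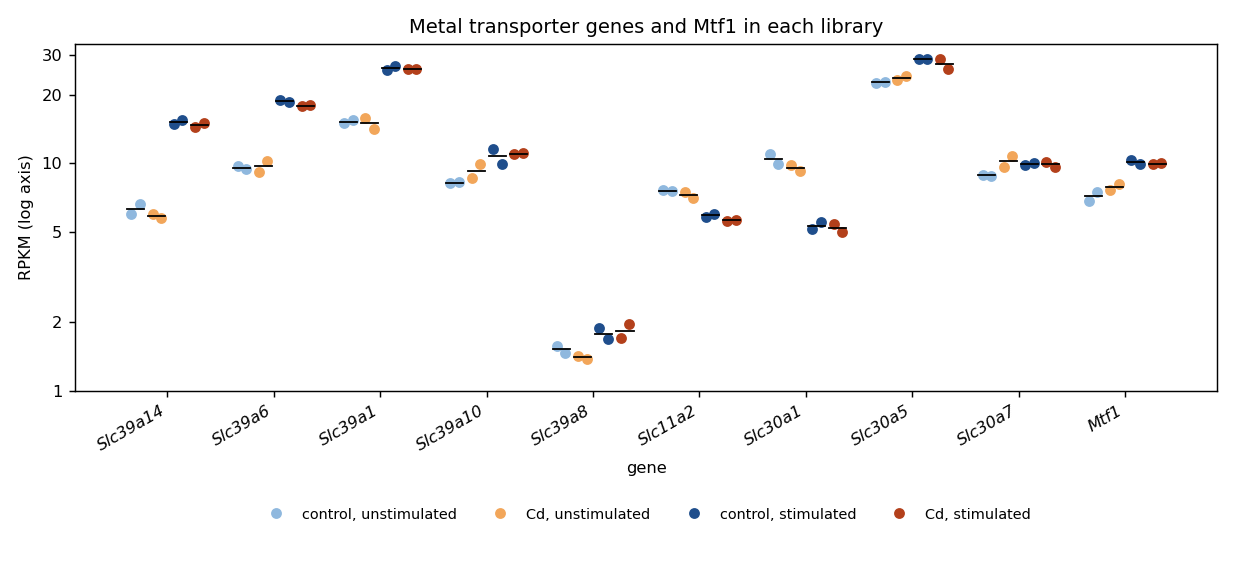
Level of each gene in RPKM (log axis) in the 8 libraries, with 1 point per library, colours for the 4 groups and a black bar at the mean of the 2 libraries. Points of stimulated cells lie above those of unstimulated cells for Slc39a14, Slc39a6 and Slc39a1 and below them for Slc30a1 and Slc11a2, and points of control and Cd offspring lie close together.

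The first comparison asked which of these genes changed when CD4+ T cells were stimulated. In control offspring, Slc39a14, Slc39a6, Slc39a1, Mtf1 and Slc30a5 rose and Slc30a1 and Slc11a2 fell at an adjusted p under 0.01 (limma, Benjamini-Hochberg over all genes tested). At this threshold 51.7% of all genes tested passed, 29.9% higher and 21.8% lower. With the fold threshold of the study added, which asks for more than 2-fold, 1 of the 10 passed, Slc39a14, which rose, against 18.7% of all genes and 11.5% in that direction. The libraries of the 2 groups did not overlap for 10 of the 10 genes, 8 higher and 2 lower, and for 83.1% of all genes, 46% higher and 37.2% lower. Their median log2 fold change was 0.36, against 0.07 over all genes tested. Counts of 7 and of 1 in 10 genes are not far from these shares, and nothing particular to the 10 genes is read from them.

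Slc39a14 encodes ZIP14, which carries zinc, manganese, iron that is not bound to transferrin, and Cd. It lies on chromosome 14 from 70303467 to 70351452 (NCBI gene 213053). Its level was 5.97 and 6.64 RPKM in the unstimulated and 14.8 and 15.4 RPKM in the stimulated control libraries. Both stimulated libraries were more than 2-fold above both unstimulated ones. The log2 fold change was 1.25, with a standard error (SE) of 0.08 and an adjusted p = 6.69e-06 in limma. This is a 2.38-fold increase. Cells of Cd offspring had 5.97 and 5.74 RPKM before and 14.4 and 15.0 RPKM after stimulation, a log2 fold change of 1.31 (adjusted p = 5.56e-06 in limma).

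Slc39a6 and Slc39a10 encode ZIP6 and ZIP10, closely related zinc importers of the plasma membrane that can form a complex with each other. Slc39a6 lies on chromosome 18 from 24579881 to 24603817 (NCBI gene 106957). It had 9.68 and 9.39 RPKM in unstimulated and 19.0 and 18.5 RPKM in stimulated control cells, with no overlap. Its log2 fold change of 0.97 (SE 0.07, adjusted p = 1.63e-05 in limma) lay just under 2-fold, and its 95% interval, 0.80 to 1.14, included 2-fold. Unstimulated libraries of Cd offspring had 9.10 and 10.2 RPKM and stimulated libraries 17.8 and 18.0 RPKM, a log2 fold change of 0.88.

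Slc39a10, on chromosome 1 from 46807544 to 46925776 (NCBI gene 227059), moved less. Its level was 8.15 and 8.27 RPKM in unstimulated and 11.5 and 9.92 RPKM in stimulated control cells. The libraries did not overlap, but the 2 stimulated libraries differed from each other by about as much as the lower of them did from the unstimulated ones. The log2 fold change was 0.38 (SE 0.10, adjusted p = 0.0118 in limma), which did not pass 0.01. With voom on the recovered reads it passed (adjusted p = 0.00265), and so it did without the control stimulated replicate 7, at 0.48 (adjusted p = 0.00963 in limma), and without either unstimulated Cd library. In Cd offspring it was 0.25 (adjusted p = 0.0592 in limma), with 8.59 and 9.96 RPKM before and 10.9 and 11.1 RPKM after stimulation.

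Slc39a1 encodes ZIP1, a zinc importer found in most cell types, on chromosome 3 from 90248190 to 90253613 (NCBI gene 30791). It had 15.0 and 15.4 RPKM in unstimulated and 25.7 and 26.8 RPKM in stimulated control cells. The values in Cd offspring were 15.8 and 14.1 RPKM and 25.9 and 25.9 RPKM. Stimulated and unstimulated libraries were far apart in both. The log2 fold change was 0.78 (adjusted p = 3.37e-05 in limma) in control and 0.79 (adjusted p = 3.3e-05 in limma) in Cd offspring.

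Slc39a8 encodes ZIP8, which carries zinc, manganese and Cd and sits on lysosomes as well as on the cell surface. It lies on chromosome 3 from 135816882 to 135888572 (NCBI gene 67547) and overlaps 4933401H06Rik. Its level was the lowest of the 10, with 1.57 and 1.46 RPKM in unstimulated and 1.87 and 1.68 RPKM in stimulated control cells. The log2 fold change was 0.21 with a 95% interval from -0.14 to 0.57. In Cd offspring, 1.42 and 1.38 RPKM in unstimulated and 1.71 and 1.96 RPKM in stimulated cells gave a log2 fold change of 0.36 (adjusted p = 0.0688 in limma). The groups did not overlap in either case, but neither difference passed the test.

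Slc30a1 encodes ZnT1, the zinc exporter of the plasma membrane. It lies on chromosome 1 from 191906697 to 191913248 (NCBI gene 22782) and overlaps 1700034H15Rik. Of the 10 genes it fell the most, from 11.0 and 9.90 RPKM in unstimulated to 5.13 and 5.50 RPKM in stimulated control cells. All stimulated libraries were well below the unstimulated ones. The log2 fold change was -0.96 (SE 0.09, adjusted p = 5.82e-05 in limma), or 1.95-fold lower, just short of the 2-fold threshold. It passed that threshold, at -1.04, without the control unstimulated replicate 7, and at -1.01 without the control stimulated replicate 7. In Cd offspring Slc30a1 fell from 9.80 and 9.20 RPKM to 5.39 and 4.98 RPKM, a log2 fold change of -0.86 (adjusted p = 0.000107 in limma).

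The other 2 ZnT genes serve the secretory pathway. Slc30a5 encodes ZnT5, which loads zinc into early secretory compartments as a heterodimer with ZnT6, and lies on chromosome 13 from 100802645 to 100833480 (NCBI gene 69048). It went from 22.6 and 22.7 RPKM to 28.6 and 28.7 RPKM in control offspring, a log2 fold change of 0.34 (SE 0.06, adjusted p = 0.00169 in limma). The 2 libraries of each control group were almost equal. The call was lost, with an adjusted p of 0.0109 to 0.0122 in limma, when any 1 of these 4 libraries was left out, and with quantile normalization, which lowered the log2 fold change to 0.19. The level in Cd offspring was 23.2 and 24.1 RPKM before and 28.7 and 26.0 RPKM after stimulation, and the log2 fold change of 0.21 (adjusted p = 0.0173 in limma) did not pass 0.01.

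Slc30a7 encodes ZnT7, a transporter of the Golgi, and lies on chromosome 3 from 115938973 to 116007414 (NCBI gene 66500), where it overlaps Gm6649 and Mir669n. It had 8.84 and 8.82 RPKM in unstimulated and 9.84 and 10.0 RPKM in stimulated control cells. The groups did not overlap, yet the log2 fold change of 0.17 did not pass (adjusted p = 0.0953 in limma). In Cd offspring the libraries overlapped, with 9.59 and 10.8 RPKM before and 10.2 and 9.67 RPKM after stimulation, and the log2 fold change was -0.04 with a 95% interval from -0.22 to 0.14.

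Slc11a2 encodes DMT1, which carries ferrous iron together with protons and also accepts Cd and manganese. It lies on chromosome 15 from 100387898 to 100424209 (NCBI gene 18174) and overlaps Gm5475. It fell from 7.62 and 7.52 RPKM to 5.79 and 5.99 RPKM in control offspring and from 7.45 and 7.04 RPKM to 5.56 and 5.64 RPKM in Cd offspring. The groups did not overlap in either. The log2 fold changes were -0.36 (adjusted p = 0.00431 in limma) and -0.37 (adjusted p = 0.00391 in limma). Both calls were lost in a fit of only the libraries compared (adjusted p = 0.0117 and 0.0182 in limma). The call in control offspring was also lost without any 1 of the 4 control libraries or either stimulated Cd library, and that in Cd offspring without the unstimulated replicate 6 or either stimulated library of Cd offspring, with an adjusted p of at most 0.0305, while the log2 fold change stayed between -0.38 and -0.33.

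Mtf1, the metal sensor itself, lies on chromosome 4 from 124802549 to 124849800 (NCBI gene 17764) and overlaps 1110065P20Rik. Its level was 6.80 and 7.49 RPKM in unstimulated and 10.3 and 9.94 RPKM in stimulated control cells. In Cd offspring it was 7.65 and 8.07 RPKM and 9.91 and 10.0 RPKM. Stimulated libraries were above unstimulated libraries in both. Mtf1 rose by a log2 fold change of 0.50 (adjusted p = 0.000818 in limma) in control and of 0.34 (adjusted p = 0.00611 in limma) in Cd offspring. The latter call was lost when either stimulated control library or any of the 4 Cd libraries was left out (adjusted p = 0.0114 to 0.0381 in limma), in a fit of only the libraries compared (0.0161), with median-of-ratios scaling (0.0152) and with quantile normalization (0.0345). For the genes that overlap another gene, the sources used here do not say if strand was used in counting, so that reads of the neighbour cannot be told apart.

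In Cd offspring as a whole, 4 of the 10 genes rose and 2 fell at an adjusted p under 0.01 (limma), where 52.5% of all genes passed, 30.2% higher and 22.3% lower. At more than 2-fold, 1 of the 10 passed, again Slc39a14, against 18.6% of all genes and 11.4% for increases. The libraries did not overlap for 9 of the 10, 7 higher and 2 lower, against 83.1% of all genes, 44.7% higher and 38.4% lower.

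**Figure D2:**
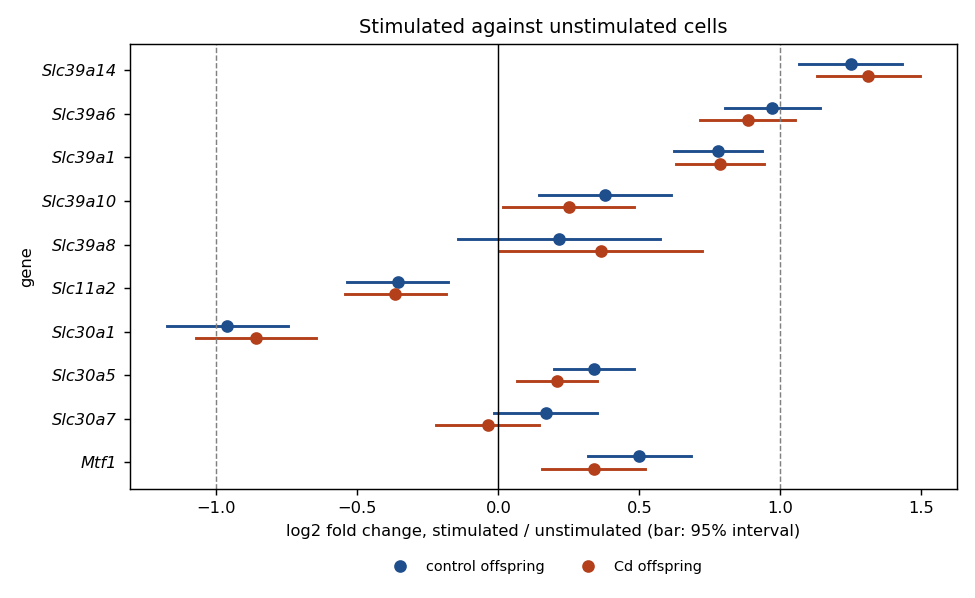
Log2 fold change of stimulated against unstimulated cells for the 10 genes in control and in Cd offspring, with points at the estimate, bars for the 95% interval of limma and dashed lines at 2-fold. The values run from -0.96 for Slc30a1 to 1.25 for Slc39a14 in control and from -0.86 to 1.31 in Cd offspring, and the bars of both groups overlap for each gene.

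Because the importer genes Slc39a14, Slc39a6 and Slc39a1 rose and the exporter gene Slc30a1 fell, the ratio of the RPKM of each ZIP gene to that of Slc30a1 was computed within each library. For Slc39a14 this ratio was 0.543 and 0.671 before stimulation and 2.89 and 2.81 after it in control cells, and 0.610 and 0.624 against 2.67 and 3.01 in Cd offspring. For Slc39a6 the mean ratio went from 0.915 ± 0.0477 (SD, n = 2) to 3.54 ± 0.242 (SD, n = 2) in control offspring, and for Slc39a1 from 1.46 ± 0.136 (SD, n = 2) to 4.94 ± 0.102 (SD, n = 2). In control offspring the ratio also rose for Slc39a10, from 0.788 ± 0.0668 to 2.03 ± 0.313 (SD, n = 2 each). For Slc39a8 it rose from 0.145 ± 0.0027 to 0.335 ± 0.0424 (SD, n = 2 each). Neither Slc39a10 nor Slc39a8 had itself passed an adjusted p under 0.01 (limma). These ratios restate the fall of Slc30a1 together with any rise of the ZIP gene and are no separate test. They compare levels of mRNA and say nothing about the amount of protein or of zinc.

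Summed over the whole ZIP family of 14 genes, the sum was 124 ± 1.71 RPKM without and 175 ± 2.29 RPKM with stimulation in control cells (SD, n = 2 each), and 122 ± 3.81 and 174 ± 1.75 RPKM (SD, n = 2 each) in Cd offspring. The 10 genes of the ZnT family summed to 69.5 ± 1.49 and 80.0 ± 1.23 RPKM (SD, n = 2 each) in control and to 72.5 ± 0.0183 and 76.9 ± 2.33 RPKM (SD, n = 2 each) in Cd offspring. Within the ZnT sum the share of Slc30a1 fell from 15.0% ± 0.788 to 6.65% ± 0.426 in control offspring and from 13.1% ± 0.588 to 6.74% ± 0.173 in Cd offspring (SD, n = 2 each). Slc39a14 went from 5.08% ± 0.455 to 8.65% ± 0.142 (SD, n = 2 each) of the ZIP sum in control offspring. Slc39a7, which encodes ZIP7 of the endoplasmic reticulum and Golgi, was the most abundant ZIP gene in every group, with 37.6% of the sum in unstimulated and 29.7% in stimulated control cells.

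**Figure D3:**
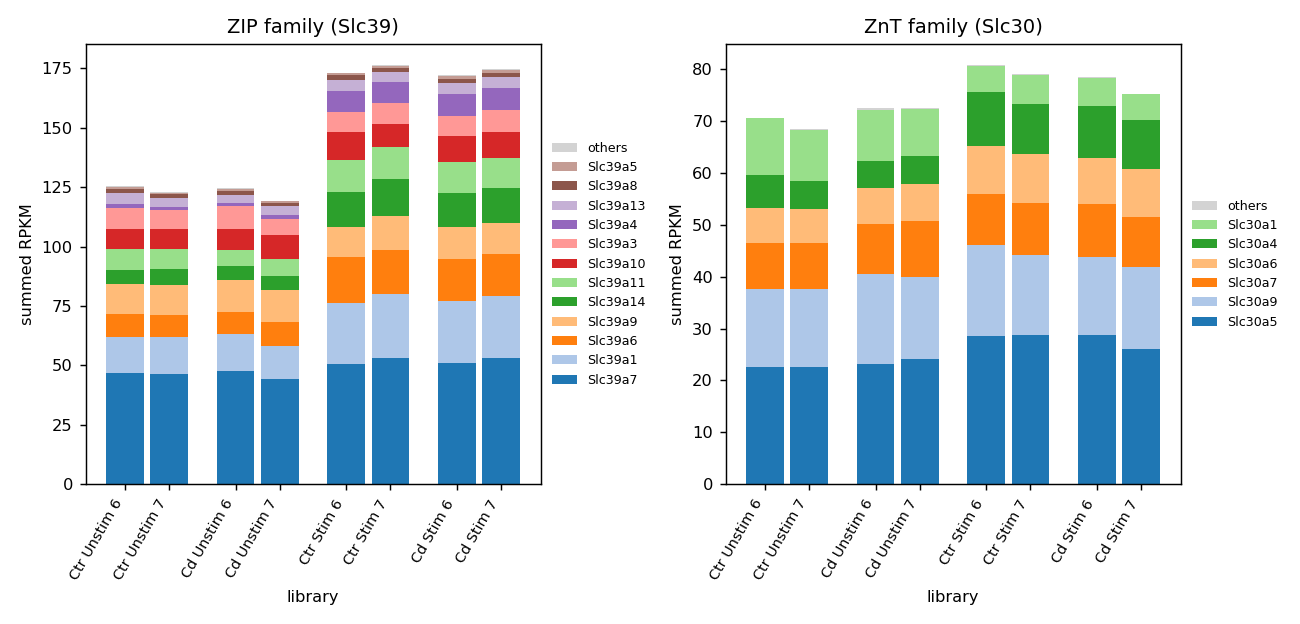
Summed RPKM of the ZIP family (left) and of the ZnT family (right) in each of the 8 libraries, stacked by gene, with genes that did not pass the filter pooled as others. The ZIP sums lie between 119 and 125 RPKM in unstimulated and between 172 and 176 RPKM in stimulated libraries, and the Slc30a1 segment at the top of the ZnT bars is smaller in stimulated libraries.

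Among the other transporters, 3 of 7 further ZnT genes and 7 of 9 further ZIP genes passed the filter. At an adjusted p under 0.01 (limma), 2 of the 3 ZnT genes rose, Slc30a4 and Slc30a6, and 2 of the 7 ZIP genes, Slc39a4 and Slc39a11, in control and in Cd offspring, and none fell, where 29.9% of all genes rose in control and 30.2% in Cd offspring. Slc39a4, which encodes the zinc importer ZIP4 known from the gut, was the only one of them past 2-fold. It had 1.70 and 1.38 RPKM in unstimulated and 8.56 and 8.75 RPKM in stimulated control cells, a log2 fold change of 2.42 (SE 0.13, adjusted p = 3.41e-06 in limma), larger than that of any of the 10 genes. In Cd offspring it went from 1.50 and 1.77 RPKM to 9.34 and 9.47 RPKM, with a log2 fold change of 2.46. The values of Slc39a4 did not overlap between unstimulated and stimulated cells.

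The metallothioneins, small proteins that bind zinc and Cd, were almost silent. Mt1 was covered by 0 to 5 reads per library and 15 in all. Mt2 was covered by 5 reads in all, and Mt3 and Mt4 by none. All 5 Mt2 reads fell in Cd libraries, 1 in an unstimulated and 1 and 3 in the stimulated libraries, and the 4 control libraries had 0. None of the 4 passed the filter, and no fold is given. A count of 3 reads corresponds to 0.217 to 0.356 RPKM of Mt1 and to 0.212 to 0.347 RPKM of Mt2, depending on the library, and these limits cover counting error only. In control offspring Mt1 had 1 read in each unstimulated and 2 reads in each stimulated library. Cd offspring had 0 and 1 reads without stimulation and 3 and 5 with it. A difference between groups was not detectable at this depth. Mtf1 itself was at 6.80 to 10.3 RPKM, against at most 0.362 RPKM for Mt1 and 0.212 RPKM for Mt2. Its 932 to 1945 reads per library come from a counted length of 7631 bases, against 542 for Mt1 and 556 for Mt2.

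Of 12 genes of iron handling 8 were tested, and of 9 genes of copper handling 8. In control offspring 4 iron genes rose and 2 fell, and in Cd offspring 5 rose and 1 fell, at an adjusted p under 0.01 (limma), which 51.7% of all genes passed in control and 52.5% in Cd offspring. The transferrin receptor gene Tfrc rose from 16.9 and 16.8 RPKM to 119 and 108 RPKM in control offspring, a log2 fold change of 2.74. In Cd offspring the log2 fold change of Tfrc was 2.54. Of the copper genes 4 rose and 2 fell in control and 4 rose and 1 fell in Cd offspring, against the same shares of 51.7% and 52.5%. Slc31a1, which encodes the copper importer CTR1, rose by log2 fold changes of 1.86 and 1.78. In the comparisons of Cd no iron or copper gene passed an adjusted p under 0.05 (limma). In unstimulated cells 5 of 8 iron and 1 of 8 copper genes had an unadjusted p under 0.05 (limma), against 13.9% of all genes. There 8 of 8 iron genes did not overlap, 2 higher and 6 lower in Cd offspring, against 42.3% of all genes. In stimulated cells the unadjusted count was 1 of 8 in each list, against 3.28%. A shift of the iron list as a whole was not tested.

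Hmox1, which encodes heme oxygenase 1, an enzyme that frees iron from heme and responds to Cd and other stress, passed both thresholds in Cd offspring only. Its level was 0.752 and 0.587 RPKM in unstimulated and 1.56 and 1.62 RPKM in stimulated Cd cells, a log2 fold change of 1.14 (adjusted p = 0.00313 in limma). In control offspring it was 1.23 and 1.09 RPKM before and 1.92 and 1.30 RPKM after stimulation, a log2 fold change of 0.42 (adjusted p = 0.145 in limma). The difference between the 2 responses was 0.72 with an adjusted p = 0.484 in limma, so the responses were not shown to differ. Compared directly, Cd against control gave -0.72 in unstimulated cells (adjusted p = 0.247 in limma) and 0.003 in stimulated cells. Hmox1 was thus not higher in Cd offspring in unstimulated cells and about equal in stimulated cells. These values rest on 19 to 65 reads per library.

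The genes most like Slc39a14, by Pearson correlation of log2 values over the 8 libraries, were Tbl3 (0.9995), Nme1 (0.9992) and Ikzf4 (0.9989). Those most like Slc30a1 were Slc2a3 (0.9984), Csrnp2 (0.9976) and Tanc1 (0.9969). The 8 libraries fall into an unstimulated and a stimulated set, so that a high correlation describes a shared step between the sets.

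The second question was whether prenatal Cd exposure shifted these genes. In unstimulated cells none of the 10 passed an adjusted p under 0.05 (limma), against 0.896% of all genes. The lowest adjusted p was 0.325. An unadjusted p under 0.05 was found for 1 of the 10, Slc30a7, and for 13.9% of all genes. The libraries did not overlap for 7 of the 10, 4 higher and 3 lower in Cd offspring, and for 42.3% of all genes, 22.3% higher and 20% lower.

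Slc30a7 was 8.84 and 8.82 RPKM in control and 9.59 and 10.8 RPKM in Cd libraries before stimulation. Its log2 fold change of 0.20 (SE 0.08, adjusted p = 0.325 in limma) did not pass. Slc30a5, Slc39a10 and Mtf1 were also higher in both unstimulated Cd libraries, with log2 fold changes of 0.06, 0.17 and 0.14. Slc30a1, Slc39a8 and Slc11a2 were lower in both, with -0.13, -0.11 and -0.06. The 95% intervals of the 10 genes lay between -0.47 and 0.40, so that in unstimulated cells a change by Cd beyond 1.32-fold up or to below 0.724 of the control level lay outside the interval of each of these genes.

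In stimulated cells the 10 genes were closer still, and so were all genes tested. Over all genes the median absolute log2 fold change of Cd against control was 0.107 in unstimulated and 0.067 in stimulated cells. For the 10 genes it was 0.106 and 0.041. None passed an adjusted p under 0.05 (limma), and neither did any of all genes tested (0%), while 414 of all genes (3.28%) and 0 of the 10 had an unadjusted p under 0.05. With voom on the recovered reads the count over all genes was also 0. The log2 fold changes ran from -0.07 for Slc11a2 to 0.04 for Slc39a10. Slc39a6 and Slc11a2 were lower in both Cd libraries than in both control libraries, 2 of 10 without overlap against 36.7% of all genes, or 20.6% in that direction. The intervals were widest for Slc39a8, from -0.32 to 0.40, and those of the other 9 genes lay between -0.25 and 0.28.

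Slc39a8 and Slc39a14, the ZIP genes whose products carry Cd, and Slc11a2 gave no detectable difference. In stimulated cells the log2 fold change of Cd against control was 0.04 for Slc39a8, -0.04 for Slc39a14, with a 95% interval from -0.22 to 0.14, and -0.07 for Slc11a2, from -0.25 to 0.11. In unstimulated cells that of Slc39a14 was -0.10, from -0.29 to 0.08. An exact two-sided permutation test of 2 against 2 libraries cannot give a p below 0.333, a limit that does not hold for the model fitted over all 4 groups.

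**Figure D4:**
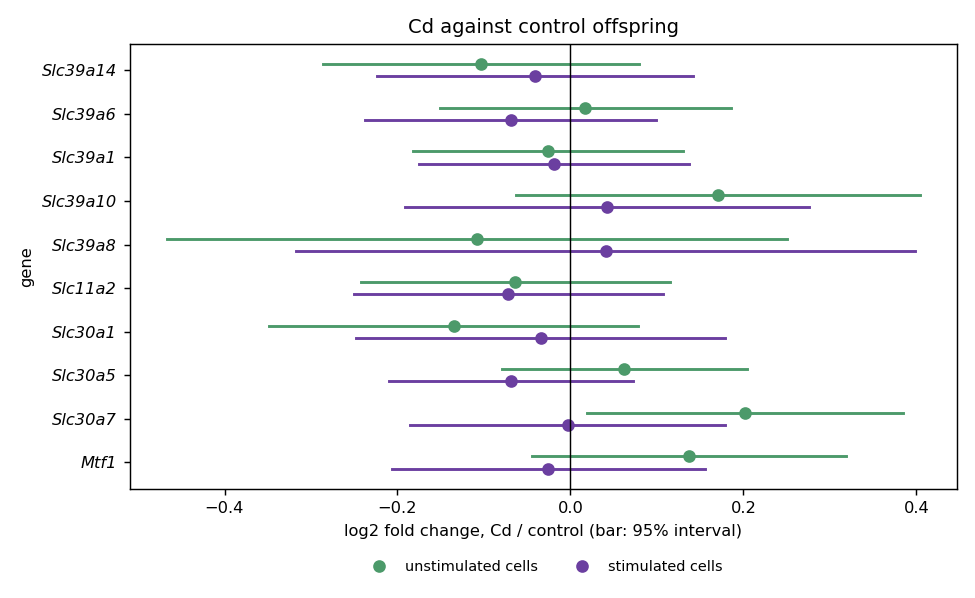
Log2 fold change of Cd against control offspring for the 10 genes in unstimulated and in stimulated cells, with points at the estimate and bars for the 95% interval of limma. All bars but that of Slc30a7 in unstimulated cells cross 0, and that of Slc39a8, the gene with the fewest reads, is the widest.

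Averaged over both states, none of the 10 differed between Cd and control offspring (lowest adjusted p = 0.777 in limma), against 0.0238% of all genes. The change by Cd in the response to stimulation passed for none of the 10 either (lowest adjusted p = 0.543 in limma), against 0.357% of all genes. An unadjusted p under 0.05 was found for 0 of the 10 in both comparisons, and for 7.14% and 10.6% of all genes. The difference in response was largest for Slc30a7, at -0.21 with a 95% interval from -0.46 to 0.05. For Slc39a14 it was 0.06, from -0.20 to 0.32, and for Slc30a1 0.10, from -0.20 to 0.40. The interval of Slc39a8 reached 0.66, so that for this gene a response up to 1.58-fold stronger in Cd offspring was within the error.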

How the data were processed

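RNA sequencing of 8 libraries of sorted splenic CD4+ T cells was analysed. The authors used subread for alignment (mm10) and featureCounts for counting on the RefSeq annotation, and the versions are not given in the sources used here. The deposited table holds log2 values, log2(RPKM + 1) + 0.0001, as read from the values (88.48% of ratios among 1167 low genes recurred within a tolerance of 1e-05 after the back-transform, against at most 9.206% on other scales). Tests had been planned for RPKM and were run on the back-transformed RPKM. No column of per-sample values was left unused. The step between low values gave whole reads and the library totals for 17790 of 17794 genes.

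Values of log2(RPKM + 0.1) of the 12605 genes with a mean of at least 0.5 RPKM were fitted as 4 group means, without a replicate block, with limma 3.58.1 under R 4.3.3 and a trended empirical Bayes prior, and p values were adjusted by the Benjamini-Hochberg method. Fold changes refer to this log2(RPKM + 0.1) scale and are too small for low genes. The threshold of the adjusted p was 0.01 for stimulation, with or without a change of more than 2-fold, and 0.05 for comparisons of Cd. The scripts were tested on simulated data. Gene coordinates and start windows came from RefSeq (GRCm38.p6). Tables and plots were made with Python 3.11.15, pandas 2.3.3 and matplotlib 3.10.9.

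The 10 genes and all lists were chosen with earlier results of these data known. The genes named are the 10, those of the ZnT, ZIP, metallothionein, iron and copper lists that passed both thresholds in a comparison (at most 4 per list), and the 3 most correlated with the genes of largest increase and decrease. Slc39a7, Slc30a4, Slc30a6, Slc39a11 and the metallothioneins fall outside this rule and were named after their values were seen. Alternatives covered the pseudocount (0.5 or 1), the filter (none, or a mean of at least 1 RPKM), a fit of only the libraries compared, quantile normalization, median-of-ratios scaling, a replicate block by number or by exposure and number, no trend, voom on the recovered reads, and leaving out each library in turn, where the lone library of a group is assumed to vary like the others.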

Additional observations from a re-analysis of the deposited data

How the results depend on the processing

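Of 109 counts of the 10 genes recomputed under the alternatives, 105 were unchanged, and none of the 10 passed in any comparison of Cd under any alternative run. The other 4 counts all concern stimulation in control offspring, where 2 genes in place of 1 passed both thresholds because Slc30a1 moved past 2-fold. Its log2 fold change was -1.04 with median-of-ratios scaling and -1.06 with quantile normalization, and leaving out 1 library gave 1 to 2 genes. Over the same comparison quantile normalization moved the median of all genes from 0.07 to -0.03. No log2 fold change of the 10 genes that had passed a threshold changed sign. Several that had not passed did so with 1 library left out, and not only the 5 counted below. That of Slc30a1 for Cd in stimulated cells, for example, ran from -0.09 to 0.02. Of the recomputed log2 fold changes of single genes, 1081 kept their side of both thresholds together, 4 (those of Slc30a1) passed it, and 5 values that had not passed moved beyond the spread and changed sign with 1 library left out.

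The replicate numbers were checked for pairing. Deviations of libraries with the same number correlated at 0.06 between unstimulated and stimulated control cells, at 0.01 between those of Cd offspring and at -0.11 to 0.01 across the exposures, so no pairing was detected, and whether equal numbers mark the same animal is not known. With the replicate block by number, 1, 1, 0, 0, 0 and 0 of the 10 genes passed in the 6 comparisons, as without it, and the block by exposure and number, which could be fitted for stimulation and for the difference in response only, gave 1, 1 and 0. At an adjusted p under 0.01 with any fold, Mtf1 in Cd offspring no longer passed with the block by number (adjusted p = 0.011 in limma), and with the block by exposure and number neither did it (0.019) nor Slc11a2 in control (0.0168) and in Cd offspring (0.0154). The count of all genes moved with the block by number from 3 to 0 for Cd averaged over both states.

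Counts over all genes depended more on the settings. For Cd in unstimulated cells, 113 genes passed, 65 without the filter, 52 with only the libraries compared, 14 without the trend, 211 with voom, and 19 without the control unstimulated replicate 6. For Cd in stimulated cells 0 passed, but 9 without the filter and 2 without the trend. For the averaged difference it was 3, 8 without the filter and 29 with voom, and for the difference in response 45, 28 without the filter, 25 with the block by exposure and number, 4 without the trend and 112 with voom. Leaving out 1 library gave 0 to 3 genes for Cd in stimulated cells, 0 to 13 for the averaged difference and, without the Cd stimulated replicate 7, as few as 2 for the difference in response. Slc39a8, with 88 to 185 reads per library, limits the precision most.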
